A study of Mus musculus with 6 samples.

Results

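The genes described here encode the ADAM, ADAMTS and ADAMTS-like proteins, chosen by symbol (Adam, Adamts or Adamtsl followed by a number and at most the letter a or b). The deposited table lists 22956 genes, and 39 of them matched: 19 ADAM genes, 15 ADAMTS genes and 5 ADAMTS-like genes, on 17 chromosomes. RNA was sequenced from 6 mouse samples labelled as aortic smooth muscle cells, 3 wild type (WT, genotype WT/mTmG/ Myh11ERT2) and 3 miR-21 knockout (genotype miR-21fl/flmTmG/Myh11ERT2). All were of strain C57B6, 30 weeks old, and had been fed a western diet for 20 weeks. Both genotypes carried the mTmG reporter, which switches colour where Cre has acted, and the Cre driver of the Myh11 promoter, so the floxed allele can be lost only in cells that use that promoter and other cells of the aorta keep miR-21. No label says whether the 3 libraries of a group came from separate animals, so p-values measure the spread between these libraries, which may be technical.

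ADAM proteins are membrane-anchored metalloproteases that cut the ectodomains of other membrane proteins, a step called shedding that releases growth factors, cytokines and receptors and starts Notch signalling. ADAMTS proteins are secreted relatives with thrombospondin repeats that cut matrix proteins such as versican, aggrecan, procollagens and von Willebrand factor. ADAMTS-like proteins share the thrombospondin repeats, lack the protease domain and bind microfibrils. In the artery wall these families take part in matrix turnover, in smooth muscle migration and in the shedding of inflammatory ligands, and both are held back by the TIMP proteins, above all TIMP3.

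miR-21 lowers messages whose 3′ untranslated region (UTR) pairs with its seed, bases 2 to 8 of the mature strand. The sequences below show the seed (capitals in the microRNA) and where its match, ATAAGCT, or the match with a further A, ATAAGCTA, stands (capitals in the gene windows, with the bases around them). They are shown because the match was found in 1 protease gene of the family and in some genes that act with it. It was found in 3 of 6 inhibitors, 2 of 23 membrane substrates and 0 of 17 matrix substrates. Pcsk6 was the 1 of 17 genes that traffic, activate, clear or modify the proteases. Over all tested genes with a searched UTR the share was 7.33%. The microRNA is from RefSeq (GRCm38.p6, chr11:86584120-86584141, minus strand), and the gene windows are from GENCODE M21 transcripts (GRCm38, the assembly also called mm10).
miR-21a-5p: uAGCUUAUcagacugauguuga
Adamts6: atgccatgcggaaagATAAGCTggcttagt
Reck: gttttacagtttgaaATAAGCTAttaatgt
Timp3: gtttttgagctttcaATAAGCTAtagcttt
Timp2: cctgcgtcttaaaaaATAAGCTgtcccaag
Notch2: tggaatgtccaagaaATAAGCTAacttgct
Jag1: ttagggagtattctcATAAGCTAgttgaat
Pcsk6: ctgtgtgggcattttATAAGCTAcgtgttc

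The windows lie at chr13:104494674-104494703 on the plus strand (Adamts6), chr4:43944392-43944421 plus (Reck), chr10:86348212-86348241 plus (Timp3), chr11:118302332-118302361 minus (Timp2), chr3:98148347-98148376 plus (Notch2), chr2:137081731-137081760 minus (Jag1) and chr7:66050017-66050046 plus (Pcsk6), each in the 3′ UTR. All 39 family genes had a 3′ UTR that could be searched, with a median of 1306 bases and a range from 76 to 6437 bases. ATAAGCT was found in 1 of the 39, Adamts6 (2.56%), and ATAAGCTA in 0. Of all 13185 tested genes with a searched UTR (median 1051 bases), 7.33% held ATAAGCT and 2.18% held ATAAGCTA. The site of Adamts6, a gene of the fibrillin-linked branch, starts at base 985 of a UTR of 2888 bases. The search covers the annotated UTR of 1 transcript a gene, and a match is a description of letters, not evidence of binding.

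Library totals were between 37787465 and 72277179 estimated counts in 5 libraries and 154384307 in WT 3. The miR-21 transcript was not analysed here, so these values do not check the knockout label. The family took 0.210% to 0.255% of the counts. Values below are CPM, the counts of a gene relative to the library total, scaled by edgeR's TMM factors. Smooth muscle markers were abundant, with the contractile actin Acta2 at 9861 to 15772 CPM, but markers of other cell types were present too. The 8 endothelial markers summed to 61.3 to 71.5 CPM, of which Pecam1 gave 52.9 to 63.6 CPM, Vwf 1.99 to 5.33 CPM and Cdh5 at most 0.580 CPM. Of a list of 6 adipocyte markers only 1, Ucp1, had values here, and it reached at most 0.0736 CPM. The level of adipocyte messages was therefore not measured by this list. Chondrocyte markers, a list of 6 that includes Comp, summed to 391 to 1124 CPM in WT and 241 to 1832 CPM in the knockout, with the cartilage collagen Col2a1 between 3.43 and 1217 CPM and Chad between 0.139 and 213.6 CPM in single libraries. Knockout 1 had the highest chondrocyte sum and knockout 3 the lowest, and the part of this list in the values of the aggrecanases and of Comp was not tested. Summed adventitial fibroblast markers were 6860 CPM (WT 1), 3061 CPM (WT 2) and 6066 CPM (WT 3), and 5576 CPM (knockout 1), 1401 CPM (knockout 2) and 1938 CPM (knockout 3), so libraries of 1 group differed more than 2-fold in this list. Of its 10 genes, Lum and Dcn made up most of the sum and 8 were lower in the knockout, none at an unadjusted p under 0.05. Fewer cells of a type and less RNA per cell cannot be told apart in such samples.

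Per kilobase of exon, Adamts1 was the most abundant family message in each of the 6 libraries. Adamts1, an inducible protease of versican and aggrecan (chromosome 16, 85793827 to 85803114, minus strand, mm10), had a mean of 108 CPM per kb over the 6 libraries, with a range from 88.9 to 139. It alone made up 25.3% of the family's summed CPM. Adam9, a shedding ADAM (chromosome 8, 24949611 to 25016928, minus strand), was second in each library at 67.9 CPM per kb, ranging from 53.5 to 89.8. The ranges of Adamts1 and Adam9 overlapped by a small margin, although Adamts1 was the higher in 6 of 6 libraries.

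Adamtsl5, a microfibril-binding ADAMTS-like gene, followed at 39.6 CPM per kb, and the procollagen protease gene Adamts2 at 31.8 CPM per kb. Their ranges overlapped, with Adamtsl5 the higher in 5 of 6 libraries. Adamts8 (23.8 CPM per kb) and Adam15 (23.0) did not differ beyond their spread, and the order held in 4 of 6 libraries. Adam10, the main sheddase of Notch receptors, stood at 18.6 CPM per kb and Adam17, the sheddase of tumour necrosis factor and of growth factors of the EGF family, at 7.42, with ranges of 15.7 to 24.5 and 6.57 to 8.87 that did not touch. With the length of the principal transcript in place of all exons, a choice added after seeing the data, Adamtsl5 moved from the third to the second place (95.5 CPM per kb) and Adam15 from the sixth to the fourth (47.5), while Adamts1 stayed first (117).

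**Figure D1:**
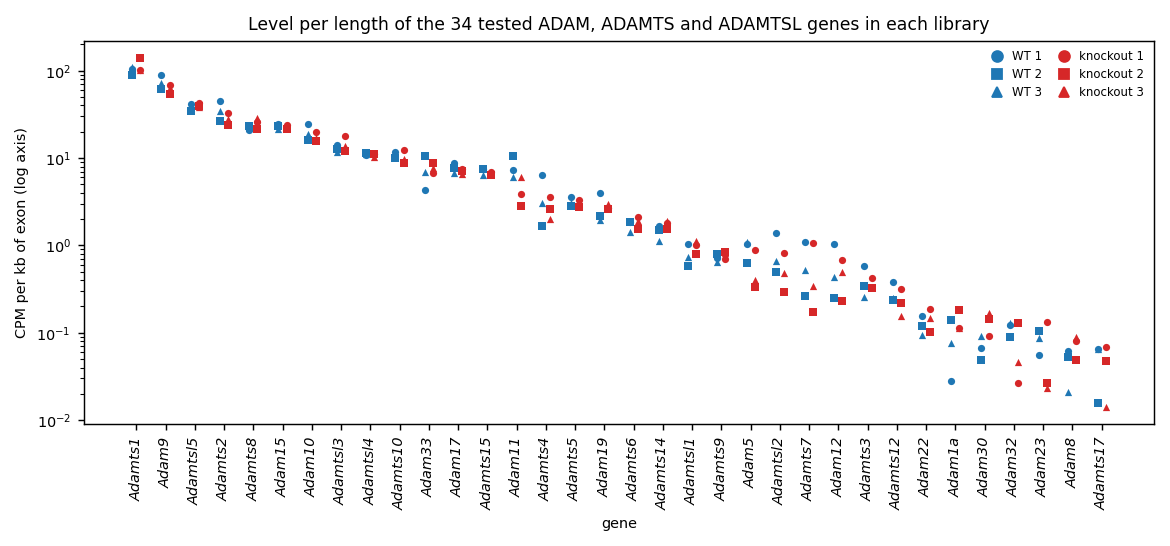
CPM per kilobase of exon (log axis) for the 34 tested genes in each library, ordered by their mean; blue points are WT, red points are knockout, and the shape gives the replicate. Adamts1 leads at 108 CPM per kb on average and the lowest tested gene, Adamts17, stands at 0.0462.

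A low-count filter left 34 of the 39 genes for testing. The 5 others, Adam1b, Adam2, Adam4, Adam21 and Adamts16, reached at most 0.322 CPM in any library, and Adam1b, Adam2, Adam21 and Adamts16 were at 0 in 1 library or more. The 8 ADAM genes outside the role groups below (Adam1a, 1b, 2, 4, 5, 21, 30 and 32), most of them known from testis and sperm, came together to 3.24 to 5.09 CPM in a library. Of the exon length of Adam1a, 63.7% is also exon of Gm42878, and Adam1a and Adam1b are related copies whose reads were not compared here, so their values are uncertain.

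The comparison asked which messages differ between libraries labelled miR-21 knockout and WT, both genotypes carrying the Myh11 driver and being on the western diet. In this family 0 genes passed the threshold of an adjusted p under 0.05 (edgeR's quasi-likelihood test with Benjamini-Hochberg adjustment over 16654 genes), and the smallest adjusted p was 0.830. The background was 0% of all genes called, and in DESeq2's Wald test, which called 0.447% of all genes, 0 family genes were called as well. At an unadjusted edgeR p under 0.05, 1 of 34 family genes was lower and 0 were higher, beside 5.96% of all genes tested (2.01% lower and 3.95% higher), so the family's share was near or under the background. Of the 34, 14 had a log2 fold change (knockout over WT) above 0 and 20 below, with a median of -0.07, against 49.4% above 0, 50.6% below 0 and a median of -0.0022 over all genes. The family's median, taken in each library after centring each gene on its mean, was 0.23 (WT 1), -0.08 (WT 2) and -0.03 (WT 3) on the log2 scale, and 0.17 (knockout 1), -0.14 (knockout 2) and -0.03 (knockout 3). WT 1 and knockout 1 were the high libraries of their groups, and the groups overlapped.

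**Figure D2:**
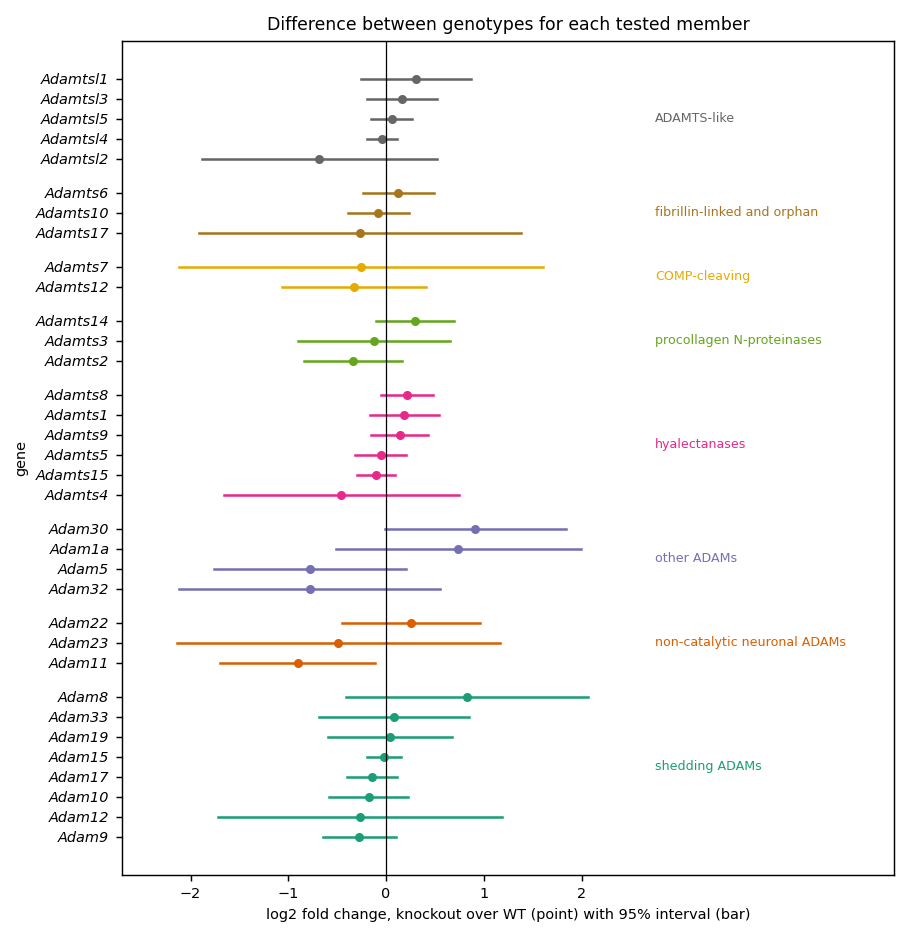
Log2 fold change of each tested gene, knockout over WT, as a point with its 95% interval as a bar, grouped by the role of the protein. The interval of Adam11 (-1.70 to -0.11) lies wholly below 0, and those of the other 33 genes reach across 0.

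The 1 gene past the unadjusted threshold was Adam11. Adam11 belongs with Adam22 and Adam23 to the ADAMs whose metalloprotease motif is lost and which act in the nervous system as adhesion proteins and receptors for LGI proteins. Adam11 (chromosome 11, 102761439 to 102780263, plus strand) had 41.6, 59.9 and 34.8 CPM in WT 1, 2 and 3 and 21.8, 16.04 and 34.6 CPM in knockout 1, 2 and 3. Every knockout library lay below every WT library, with knockout 3 almost level with WT 3. The same was true of 5.6% of all genes tested, and no family gene had all knockout libraries above all WT libraries (background 6.48%).

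The log2 fold change of Adam11 was -0.91 ± 0.33 (SE, n = 3 each), at an unadjusted p of 0.0320 by edgeR, where adjustment gave 0.830 (adjusted p by DESeq2, 0.212). It ranged from -1.26 without knockout 3 to -0.66 without WT 2, and its unadjusted p in edgeR rose above 0.05 on leaving out WT 1 (0.0614) or WT 2 (0.0953), and on leaving out knockout 1 (0.0594) or knockout 2 (0.0680). In a fit with same-numbered libraries as blocks, the log2 fold change of Adam11 was -0.93 and its unadjusted p in edgeR 0.137. Adam11 lies 16.2 Mb from Mir21a on the same chromosome, which also carries Adamts2 (35.8 Mb away) and Adam19 (40.4 Mb away). Summed markers of Schwann cells and neurons, 6 genes of which Uchl1 gave most, were between 100 and 111 CPM in WT and between 82.7 and 109 CPM in the knockout, with Sox10 at no more than 0.0804 CPM in any library. Tubb3, a neuronal tubulin gene of that list, had 19.3, 9.25 and 14.8 CPM in WT 1, 2 and 3 against 12.5, 4.35 and 7.37 CPM in knockout 1, 2 and 3 (log2 fold change -0.84 ± 0.43, SE; edgeR adjusted p = 0.859), with groups that overlapped. Their part in the Adam11 result was not tested.

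The other ADAMs without a catalytic motif were far less abundant than Adam11. Adam22 stood at 0.134 CPM per kb and Adam23 at 0.0716 CPM per kb, against 6.14 for Adam11. With the length of the principal transcript these were 0.696, 0.20 and 7.53 CPM per kb, so the gap between Adam11 and Adam22 depended strongly on the length used. Adam23 had 1.00, 1.87 and 1.57 CPM in WT 1, 2 and 3 and 2.36, 0.481 and 0.417 CPM in knockout 1, 2 and 3. Knockout 1 was the highest of the 6 libraries and the other knockout libraries the lowest, so the groups overlapped for Adam23, and the log2 fold change was -0.49 ± 0.69 (SE).

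Of the shedding ADAMs, 8 were in the table and all 8 were tested. None passed at an unadjusted p under 0.05, 3 lay higher and 5 lower, and the median log2 fold change was -0.08. Adam9, which sheds growth factor precursors and binds integrins, had 369.7, 252 and 296 CPM in WT 1, 2 and 3 and 280.4, 219.96 and 258 CPM in knockout 1, 2 and 3. WT 1 was high and knockout 2 low, and knockout 1 and 3 lay within the range of WT. The log2 fold change of Adam9 was -0.27 ± 0.16 (SE), an interval from 0.638 to 1.07 times the WT level (edgeR adjusted p = 0.859).

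Adam10 had 120.5, 78.2 and 92.8 CPM in WT and 97.6, 76.9 and 83.0 CPM in the knockout. Its log2 fold change of -0.18 ± 0.17 (SE) was 0.0038 without WT 1, the library with the highest value. Adam17 had 63.4, 55.5 and 48.1 CPM in WT and 53.3, 50.9 and 47.03 CPM in the knockout. In both groups replicate 1 was the highest for both of these sheddases, and the groups overlapped. The 95% interval of Adam17 ran from 0.760 to 1.08 times the WT level, and that of Adam10 from 0.668 to 1.17 times.

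Adam15, an ADAM with an integrin-binding motif found in vascular cells, had the smallest ratio between highest and lowest library of the tested genes, 1.12. Adam15 had 149, 144 and 134 CPM in WT and 148, 133 and 140.3 CPM in the knockout, and a log2 fold change of -0.02 ± 0.07 (SE). The 95% interval of Adam15 was 0.876 to 1.11 times the WT level, so that even a change of 1.5-fold lay outside it. Of its exon length, 20.6% is shared with the antisense gene 4731419I09Rik (1.77 CPM), and reads there cannot be told apart without strand.

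Adam33, an ADAM of smooth muscle and mesenchymal cells, and Adam12 and Adam19, which are linked to growth factor shedding and to mesenchymal growth, varied more between libraries than between genotypes. Adam33 had 23.0, 56.8 and 37.7 CPM in WT and 36.2, 47.1 and 41.1 CPM in the knockout. Adam12 had 10.9, 2.63 and 4.57 CPM in WT and 7.19, 2.47 and 5.31 CPM in the knockout. WT 1 was the lowest library for Adam33 and the highest for Adam12. Adam19 had 28.0, 15.5 and 14.03 CPM in WT and 19.01, 18.6 and 21.3 CPM in the knockout, with all knockout libraries inside the range of WT.

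The log2 fold changes of Adam33, Adam12 and Adam19 were 0.08 ± 0.31, -0.27 ± 0.60 and 0.04 ± 0.26 (SE). Without WT 1 they were -0.18, 0.46 and 0.42. Adam8, a sheddase of leukocytes, had only 10 to 30 counts in each library and 0.0974 to 0.417 CPM. This level of Adam8 gave an interval of 0.751 to 4.18 times the WT level, too wide to show either a change or its lack.

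**Figure D3:**
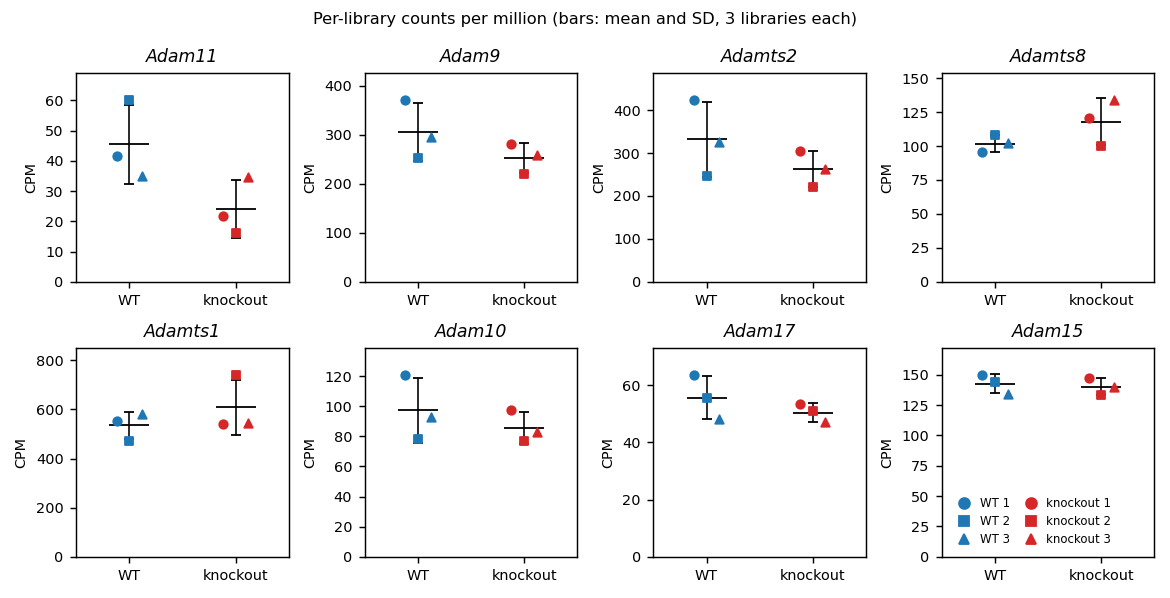
CPM of 8 family genes in each library, with the mean and SD of each group as a horizontal mark and a bar (3 libraries each); the axes start at 0. The lowest WT library of Adam11 (34.8 CPM) and its highest knockout library (34.6 CPM) nearly meet without overlapping, and those of the other 7 genes overlap.

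The hyalectanases are the ADAMTS proteases that cut the large proteoglycans versican and aggrecan. The 6 in the table, Adamts1, 4, 5, 8, 9 and 15, were all tested, with 3 higher, 3 lower, a median log2 fold change of 0.04 and none at an unadjusted p under 0.05. Adamts1 had 552, 472 and 579.95 CPM in WT and 541, 738 and 546 CPM in the knockout. Knockout 2 alone stood above the range of WT, and the log2 fold change of Adamts1, 0.19 ± 0.15 (SE), was 0.02 without it.

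Adamts8, an antiangiogenic member, had 95.5, 108 and 101.96 CPM in WT and 121, 99.8 and 134 CPM in the knockout. Knockout 1 and 3 lay above all WT libraries and knockout 2 among them. Its log2 fold change of 0.21 ± 0.11 (SE), the smallest p of the hyalectanases (edgeR unadjusted p = 0.0994, adjusted p = 0.859), came to 0.32 without knockout 2. Adamts15, which lies 20.1 kb from Adamts8 on the opposite strand of chromosome 9, had 78.0, 77.7 and 66.4 CPM in WT and 72.2, 65.6 and 69.2 CPM in the knockout. Adamts15 had a log2 fold change of -0.10 ± 0.08 (SE), so these neighbours pointed in opposite directions without either passing.

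Adamts4 and Adamts5, the aggrecanases best known from cartilage and also found in atherosclerotic lesions, differed in how steady they were. Adamts5 had 38.5, 30.2 and 33.2 CPM in WT and 35.8, 29.5 and 32.8 CPM in the knockout, a ratio of 1.30 between the highest and lowest library. Adamts4 had 31.1, 7.95 and 14.9 CPM in WT and 17.0, 12.6 and 9.71 CPM in the knockout, a ratio of 3.91. On the log2 scale the difference of Adamts5 was -0.06 ± 0.11 (SE) and that of Adamts4 was -0.46 ± 0.50 (SE), which was 0.18 without WT 1. Adamts9, a widely expressed hyalectanase, had 9.72 to 12.03 CPM in WT and 10.4 to 12.8 CPM in the knockout, and a log2 fold change of 0.14 ± 0.12 (SE).

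The procollagen N-proteinases remove the amino-terminal propeptides of fibrillar collagens, and all 3 were tested without a call. Adamts2 (chromosome 11, 50602084 to 50807574, plus strand), the main enzyme of this step, had 422, 247 and 326 CPM in WT and 304, 222 and 262 CPM in the knockout. WT 1 was the highest and knockout 2 the lowest, and knockout 1 and 3 lay within the range of WT. The log2 fold change of Adamts2 was -0.34 ± 0.21 (SE), from -0.51 without WT 2 to -0.13 without WT 1. Adamts14 had 8.68, 7.76 and 5.91 CPM in WT and 9.39, 7.99 and 9.92 CPM in the knockout, and a log2 fold change of 0.30 ± 0.17 (SE). Adamts3, at 1.403 to 3.19 CPM over the 6 libraries, had a log2 fold change of -0.13 ± 0.33 (SE). Adamts2 and Adamts14 thus differed in sign, and neither passed.

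Adamts7 and Adamts12 cut cartilage oligomeric matrix protein, and Adamts7 is known from human genetic studies of coronary disease. Adamts7 had 6.80, 1.67 and 3.31 CPM in WT and 6.65, 1.10 and 2.14 CPM in the knockout, a ratio of 6.19 between the highest and lowest library. In each group the first replicate was the highest and the second the lowest, and the groups overlapped. The log2 fold change of Adamts7, -0.26 ± 0.77 (SE), was -1.26 without knockout 1 and 0.37 without WT 1. Of the exon length of Adamts7, 1.94% is antisense to exons of Tbc1d2b (151 CPM). Adamts12 had 4.14, 2.602 and 2.71 CPM in WT and 3.46, 2.38 and 1.71 CPM in the knockout (log2 fold change -0.33 ± 0.31, SE).

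The fibrillin-linked and orphan ADAMTS genes held the only seed match of the family. Adamts6 had 14.5, 14.4 and 11.2 CPM in WT and 16.7, 12.2 and 14.8 CPM in the knockout. Knockout 1 and 3 stood above all WT libraries and knockout 2 among them, and the log2 fold change was 0.13 ± 0.15 (SE, edgeR adjusted p = 0.916). Adamts10, which binds fibrillin microfibrils, had 82.4 to 97.4 CPM in WT and 72.4 to 101 CPM in the knockout, and a log2 fold change of -0.08 ± 0.13 (SE). Adamts17 stood at 0.111 to 0.536 CPM.

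The 5 ADAMTS-like genes were all tested, with 3 higher, 2 lower, a median log2 fold change of 0.06 and none at an unadjusted p under 0.05. Adamtsl4, which takes part in microfibril formation and is known from lens dislocation, had 45.4, 48.4 and 46.9 CPM in WT and 47.4, 46.6 and 42.8 CPM in the knockout. Its difference was -0.04 ± 0.06 (log2, SE), with an interval of 0.876 to 1.08 times the WT level. Adamtsl5 had 194, 162 and 193 CPM in WT and 200.2, 188 and 183 CPM in the knockout (log2 fold change 0.06 ± 0.09, SE). The highest library was 1.13 times the lowest for Adamtsl4 and 1.24 times for Adamtsl5, among the smallest spreads of the family.

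Adamtsl3 had 109.8, 98.8 and 91.8 CPM in WT and 137, 92.1 and 107 CPM in the knockout, with knockout 1 the highest library and a log2 fold change of 0.16 ± 0.15 (SE). Adamtsl1 had 13.4, 7.34 and 9.42 CPM in WT and 12.8, 10.1 and 14.3 CPM in the knockout, and a log2 fold change of 0.30 ± 0.24 (SE). Adamtsl2, which binds latent TGF-beta binding protein and is mutated in geleophysic dysplasia, had 11.2, 3.93 and 5.35 CPM in WT and 6.52, 2.36 and 3.88 CPM in the knockout. Replicate 2 was the lowest in both groups for Adamtsl2, whose log2 fold change of -0.68 ± 0.50 (SE) was -0.14 without WT 1 and -1.12 without knockout 1.

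Other ADAMs at low levels had large fold changes with wide intervals. Adam30 had 0.237, 0.172 and 0.325 CPM in WT and 0.322, 0.503 and 0.598 CPM in the knockout, or 7 to 50 counts a library, and a log2 fold change of 0.91 ± 0.39 (SE, edgeR unadjusted p = 0.0530). Adam5 had 3.22, 1.99 and 3.42 CPM in WT and 2.79, 1.05 and 1.25 CPM in the knockout (log2 fold change -0.78 ± 0.41, SE). The groups overlapped for both of these genes. Adam32, which lies 0.807 kb from Adam9 on the same strand, and Adam1a had log2 fold changes of -0.78 ± 0.56 and 0.74 ± 0.53 (SE).

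Libraries of 1 genotype differed more than the genotypes did in several family genes. In 22 of the 34 tested genes WT 1 was the highest WT library (64.7%, against 37.0% of all genes tested), and in 22 knockout 1 was the highest knockout library (64.7% against 36.7%). WT 2 was the lowest WT library in 17 (50.0% against 34.7%), and knockout 2 the lowest knockout library in 21 (61.8% against 34.8%). The 8 genes that met all 4 conditions were Adam9, Adam10, Adam12, Adamts2, Adamts5, Adamts7, Adamts10 and Adamtsl2 (23.5%, against 9.81% of all genes tested). Of the 10 adventitial fibroblast markers, 8 met all 4 as well.

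This order was that of the summed fibroblast markers given above, highest in WT 1 and knockout 1 and lowest in WT 2 and knockout 2 within their groups. Relative to its mean over the 6 libraries, log2(CPM + 0.1) of Adamts7 was highest in WT 1 (1.19) and knockout 1 (1.16) and lowest in WT 2 (-0.77) and knockout 2 (-1.33). Lum, a proteoglycan gene of fibroblasts, was at 1.06 in WT 1, 0.66 in knockout 1, -0.24 in WT 2 and -1.49 in knockout 2. Acta2 had its lowest value in WT 1 (-0.42) and, within the knockout, in knockout 1 (-0.13). Adamts15 stayed within -0.12 and 0.13 and Adamtsl4 within -0.11 and 0.07. Summed macrophage markers were also highest in WT 1 and knockout 1, at 30.2 CPM and 29.5 CPM, against 6.37 to 16.8 CPM in the other 4 libraries. Lyz2 (12.6 CPM in each) and Cd14 (8.78 and 6.84 CPM) gave most of the sums of WT 1 and knockout 1. Cd68 alone of the list was not highest in WT 1 among WT, with 2.66, 2.72 and 3.00 CPM in WT 1, 2 and 3. The part of these other cell types in the family's values was not tested.

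**Figure D4:**
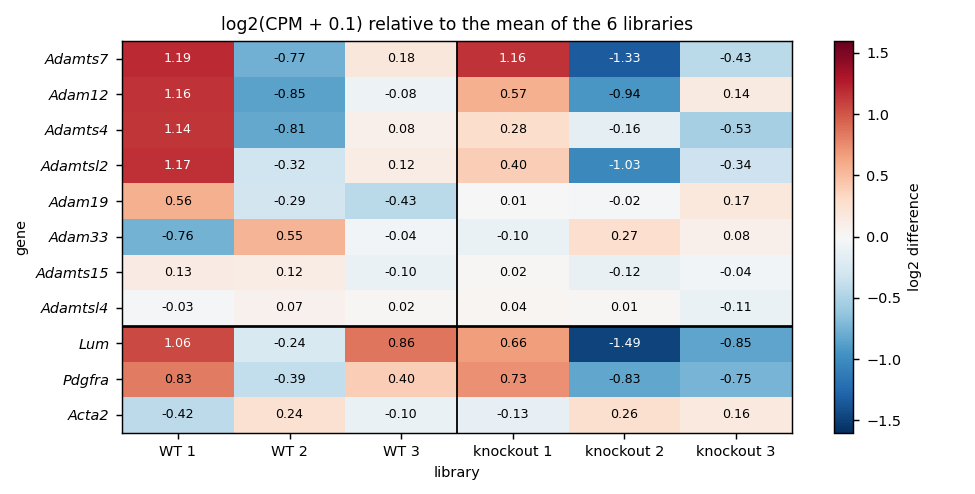
Log2(CPM + 0.1) of 8 family genes (above the line) and 3 marker genes (below it) in each library, relative to the gene's mean over the 6 libraries; red is higher and blue lower. Adamts7, Adam12, Adamts4 and Adamtsl2 are highest in WT 1 (1.14 to 1.19), where Adam33 is lowest (-0.76), while Adamts15 and Adamtsl4 hardly vary.

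The width of the intervals limited what the comparison could show. For 13 of the 34 tested genes the 95% interval excluded a 1.5-fold change in either direction, and for 21 it excluded a 2-fold change. All 13 had a mean of at least 10 CPM, of which there were 20. Among the 14 tested genes under 10 CPM, 0 had an interval within 1.5-fold and 3 within 2-fold, so for most of these a 2-fold difference was not excluded here. Counting depth alone did not order the intervals: Adamts7, with 48 to 510 counts a library, had an SE of 0.77, and Adam30, with 7 to 50 counts, one of 0.39. The median SE of a log2 fold change was 0.25 in the family and 0.14 over all genes tested.

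The inhibitors of the family stood apart from the proteases in 1 gene. Reck, a membrane-anchored inhibitor that restrains ADAM10 and matrix metalloproteinases, had 141, 142 and 137.7 CPM in WT and 239, 204 and 223 CPM in the knockout, without overlap. The difference for Reck was 0.67 ± 0.08 (log2, SE), which passed in DESeq2 (adjusted p = 8.8e-11) and not in edgeR (adjusted p = 0.217). Timp3, the inhibitor of ADAM17 and of the aggrecanases, had 3670, 3354 and 2912 CPM in WT and 4910, 3024 and 3141 CPM in the knockout, where knockout 1 alone was high. For Timp3 the log2 fold change was 0.16 ± 0.21 (SE) and turned to -0.11 without knockout 1. Timp2 had a log2 fold change of -0.29 ± 0.24 (SE). Of the 5 inhibitors tested, 3 were higher and 2 lower. Reck alone passed an unadjusted p under 0.05 in edgeR, beside 5.96% of all genes tested. Reck was also the 1 of these 5 with all knockout libraries above WT, beside 6.48% of all genes tested. ATAAGCT was found in Reck, Timp2 and Timp3, which are 3 of the 6 inhibitors in the table.

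Among 17 tested genes that traffic, activate, clear or modify these proteases, 7 were higher and 10 lower, with a median log2 fold change of -0.06. Of the 17, 1 was past an unadjusted p under 0.05 in edgeR, beside 5.96% of all genes tested, and 2 had all knockout libraries above WT and 2 below, beside 6.48% and 5.6%. The 1 was Pcsk5, a proprotein convertase, with 74.8, 84.7 and 84.0 CPM in WT and 120.35, 104 and 89.6 CPM in the knockout (log2 fold change 0.37 ± 0.11, SE; edgeR adjusted p = 0.786). All knockout libraries of Pcsk5 lay above WT, as did those of Rhbdf2, the iRhom2 gene that carries ADAM17 to the cell surface, at 36.1 to 40.2 CPM in WT and 41.2 to 43.7 CPM in the knockout (log2 fold change 0.14 ± 0.06, SE; edgeR adjusted p = 0.854). Tspan14, a tetraspanin partner of ADAM10, had 10.6 to 11.2 CPM in WT and 8.70 to 10.1 CPM in the knockout, all knockout libraries below WT (log2 fold change -0.21 ± 0.09, SE; edgeR adjusted p = 0.841). Pcsk6, which holds ATAAGCTA, had a log2 fold change of 0.28 ± 0.25 (SE, edgeR adjusted p = 0.883), and its groups overlapped. None of the 17 passed an adjusted p under 0.05 in edgeR or DESeq2.

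Matrix substrates of ADAMTS proteases were higher for 6 and lower for 10 of 16 tested genes, with a median log2 fold change of -0.10 and none at an unadjusted p under 0.05. Versican (Vcan) had 186.7, 109 and 127 CPM in WT and 125, 136 and 112 CPM in the knockout. Comp, the substrate of Adamts7 and Adamts12, had 146, 327 and 567 CPM in WT and 222, 187.2 and 114.3 CPM in the knockout (log2 fold change -0.99 ± 0.50, SE; edgeR adjusted p = 0.859). WT 1 was the lowest WT library for Comp and the highest for Adamts7, while knockout 1 was the highest knockout library for both. Chad, a cartilage matrix gene, had the same order of libraries as Comp within each group. Chad had 9.20, 71.2 and 213.6 CPM in WT 1, 2 and 3 against 136, 31.2 and 0.139 CPM in knockout 1, 2 and 3. Other chondrocyte markers departed from this order. Acan and Col2a1 were highest in WT 2 among WT, and Sox9 was lowest in knockout 2 among the knockouts. Log2 fold changes were below 0 for Chad (-0.83 ± 1.70, SE) and Sox9 (-0.19 ± 0.22), and above 0 for Acan (0.30 ± 0.56) and Col2a1 (1.35 ± 1.75). The part of cartilage cells in the Comp values was not tested. Col3a1, a substrate of Adamts2, and Vwf, the gene of von Willebrand factor, had log2 fold changes of -0.39 ± 0.28 and 0.68 ± 0.31 (SE).

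Membrane substrates of ADAM10 and ADAM17 were higher for 12 and lower for 11 of 23 tested genes, with a median log2 fold change of 0.01. Notch2 had 141, 123 and 129.9 CPM in WT and 189, 157 and 166 CPM in the knockout. Notch3, the receptor of smooth muscle, had 48.2, 43.8 and 46.7 CPM in WT and 73.3, 52.2 and 53.7 CPM in the knockout. In both genes every knockout library lay above WT, as in Dll4, a Notch ligand gene at 0.105 to 0.412 CPM over the 6 libraries. These were 3 of the 23, beside 6.48% of all genes tested, and 0 of the 23 had all knockout libraries below WT (background 5.6%). The log2 fold changes of Notch2 and Notch3 were 0.38 ± 0.09 and 0.37 ± 0.13 (SE), at edgeR adjusted p of 0.750 and 0.830. Mertk, a receptor for apoptotic cells, was at 0.41 ± 0.16 (SE, edgeR adjusted p = 0.830), and its groups overlapped. Notch2, Notch3 and Mertk were the 3 of 23 at an unadjusted p under 0.05, all higher, beside 3.95% of all genes. Jag1, a Notch ligand that holds ATAAGCTA like Notch2, had 147, 68.8 and 124.5 CPM in WT and 96.2, 91.5 and 114.5 CPM in the knockout (log2 fold change -0.17 ± 0.27, SE). None of the 23 passed an adjusted p under 0.05 in edgeR or DESeq2.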

How the data were processed

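The values deposited by the authors are estimated counts per gene, 1 table for 6 samples, with fractional values and no normalization, per the file headers and values. STAR 2.6, DESeq2 and the assembly mm10 are listed, without a stated use, per the submitters' processing notes. Which program counted the reads, with what strand setting and gene models, is not given in the sources used here. Columns were joined to samples by the sample code, and 0 were left over. Counts were rounded to whole numbers, filtered with filterByExpr (16654 genes), then normalised by TMM; knockout was compared with WT by edgeR 4.0.16 (R 4.3.3; quasi-likelihood, robust dispersions), two-sided, adjusted by Benjamini-Hochberg over all genes tested. The script was tested on simulated data. Intervals are 95% intervals of the log2 fold change from that test and cover the spread between 3 libraries a group. Lengths are the union of exons in GENCODE M21, where 37 of the 39 genes matched by position and 2 by symbol, and UTRs are those of the transcript with the best APPRIS tag. Replicate pairs differed beyond counting noise. Alternatives were DESeq2 1.42.0, other scalings and filters, a replicate block and leaving out each library.

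Named genes were the 8 family genes with the smallest p in each direction, the 8 highest per length, 17 family genes of known vascular roles, and the 3 smallest p of each list of inhibitors, regulators and substrates, with Timp3 and Reck. Of these 40, 28 are family genes. Other genes are named as neighbours, substrates, markers or family genes outside the rule, after their values were seen. The family genes and lists were chosen with earlier results of these data known.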

Additional observations from a re-analysis of the deposited data

How the results depend on the processing

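With all libraries edgeR called 0 genes at an adjusted p under 0.05 (993 at an unadjusted p under 0.05). DESeq2 called 73, the fit with the replicate block 1, and leaving out 1 library gave 0 to 1. No family gene was called in any of these alternatives. The count of family genes at an unadjusted p under 0.05 was 1 in the reported fit, beside 5.96% of all genes. With the replicate block it was 4, all 4 of them lower and none of them Adam11 (Adamtsl2, Adamts2, Adam9 and Adam5), beside 12.7% of all genes. When 1 library was left out it was 1 to 4 (0 to 3 higher, 0 to 3 lower), beside 3.5% to 10.1% of all genes. Without WT 3 it was 4, beside 4.26%, and without knockout 1 it was 3, beside 10.1%. The cause of these shifts was not tested. The reported fit did not treat same-numbered libraries as pairs. Their deviations had correlations of 0.289 (replicates 1), 0.317 (replicates 2) and -0.0263 (replicates 3). Between WT and knockout libraries of unlike number the correlations ran from -0.351 to 0.117. Whether the numbers mark pairs was not tested. The family's median log2 fold change ranged from -0.14 to 0.04 without 1 library. Of the 28 named family genes, 17 kept their sign without each library in turn, 0 turned sign under another scaling, filter, tool or the block, and 11 took both signs: Adam10 (-0.32 to 0.0038), Adam12 (-0.62 to 0.46), Adam15 (-0.067 to 0.015), Adam19 (-0.15 to 0.42), Adam33 (-0.18 to 0.44), Adamts4 (-0.81 to 0.18), Adamts5 (-0.14 to 0.042), Adamts7 (-1.26 to 0.37), Adamtsl3 (-0.011 to 0.29), Adamtsl4 (-0.074 to 0.0030) and Adamtsl5 (-0.027 to 0.10). Timp3 also took both (-0.11 to 0.28). Intervals were on median wider for family genes under 10 CPM (median SE 0.51, against 0.15 at 10 CPM or more), and counting depth was not separated from the spread between libraries.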
